A study of Mus musculus with 5480 samples.

Results

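Adventitial fibroblasts of the mouse lung at postnatal day 21 (P21) were taken as the cells whose deposited subtype label is adventitial fibroblast in mice kept in normal air. There were 238 such cells among 835 cells of that age and among 5480 cells in the whole series. The series profiled single mesenchymal cells of the developing mouse lung, in normal air and after hyperoxia, by plate-based sequencing of full-length cDNA. The P21 cells came from distal lung of 1 female and 1 male mouse, and the strain is not given in the sources used here. Cells of 1 other female and 1 other male mouse at each of P1 and P7, also of distal lung, serve for a comparison with earlier ages. No transgene or added agent is named for these mice, and normal air is what all groups used here share.

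The adventitia is the loose connective tissue that sheathes blood vessels and airways. Its fibroblasts are known for fibril-forming collagens, for small proteoglycans that coat those fibrils, and for surface proteins such as Pi16 and Ly6a that also mark progenitor-like fibroblasts of other organs. Alveolar fibroblasts, by contrast, lie in the walls of the gas-exchanging air sacs. Smooth muscle cells ring airways and arteries, and pericytes lie along capillaries.

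The female mouse gave 153 adventitial cells among its 524 cells, a share of 29.2% (95% Wilson interval 25.5 to 33.2). The male mouse gave 85 among 311, or 27.3% (22.7 to 32.5). No difference between the 2 plates of a mouse passed the test, with shares of 32.3% and 26.4% in the female (Fisher's exact test, two-sided, p = 0.148, adjusted over 2 tests 0.296) and of 25.9% and 28.2% in the male (p = 0.7, adjusted 0.7). These shares describe sorted cells and not the tissue, since cells were chosen by flow cytometry before they were sequenced. Only 2 of the 238 cells came from the sort for CD31-positive cells, and the rest came from the mesenchymal sort.

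Besides them, 4 subtypes had at least 10 cells in both mice and served for comparison: 250 alveolar fibroblasts, 113 airway smooth muscle cells, 52 vascular smooth muscle cells and 145 pericytes. Reads were summed by mouse and subtype, which gave 10 libraries. The adventitial libraries held 152702638 reads in the female and 103226068 reads in the male, and the other 8 libraries held between 20677737 and 151395302. The median adventitial cell had 957996 reads in the female and 1093846 in the male. Levels are given in CPM, reads scaled to a common library size by TMM, per 1000000 reads, as the value in the female and then in the male. Genes are compared with themselves across subtypes, never with each other, because CPM takes no account of gene length. A gene is called higher or lower where edgeR's quasi-likelihood test, adjusted by the Benjamini-Hochberg method over 14437 genes, gave an adjusted p under 0.05. The fit took the mouse as a block, so a shift shared by all subtypes of a mouse was removed before testing. The p-values thus rest on how far the differences between subtypes varied between these 2 mice, pooled over the subtypes. They do not measure the spread of a level between the mice. With 2 mice, sex, mouse and sequencing run cannot be told apart. The subtype names are the authors' and may rest on the same expression values, so the calls describe the named cells and do not test that the subtype exists.

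The 5 marker genes of the subtype were highest in both adventitial libraries, each above all 8 other libraries. Across all genes tested, 690 (4.78%) lay above all 8 in the same way and 194 (1.34%) below them. Col14a1, a collagen that sits on fibril surfaces, had 952 and 1271 CPM. It had 7.62 and 10.9 CPM in alveolar fibroblasts, 146 and 286 in airway muscle, 117 and 92.6 in vascular muscle, and under 0.05 in pericytes. Its mean level was 120-fold that of alveolar fibroblasts and 5.14-fold that of airway muscle, so the nearest other subtype was a muscle cell. Dcn encodes decorin, a proteoglycan that binds collagen, and it had 9722 and 13359 CPM. Its alveolar levels were 46.5 and 54.5 CPM, its airway muscle levels 969 and 1335 CPM, and no vascular muscle or pericyte library passed 25.8 CPM.

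Pi16, a secreted or surface protein of the CAP family, had 781 and 555 CPM in adventitial fibroblasts. No reads were found in airway muscle, and the other libraries had at most 8.74 CPM, in the female's vascular muscle. Ly6a, which encodes the surface protein Sca-1, had 462 and 864 CPM against 25.3 and 76.0 CPM in pericytes and under 1 CPM in every remaining library. Mmp3, a protease that cuts matrix proteins, had 1163 and 1647 CPM and was the least exclusive of the 5. Its alveolar levels were 88.5 and 606 CPM and its airway muscle levels 34.4 and 675 CPM, so that the female of each lay far below the male.

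**Figure D1:**
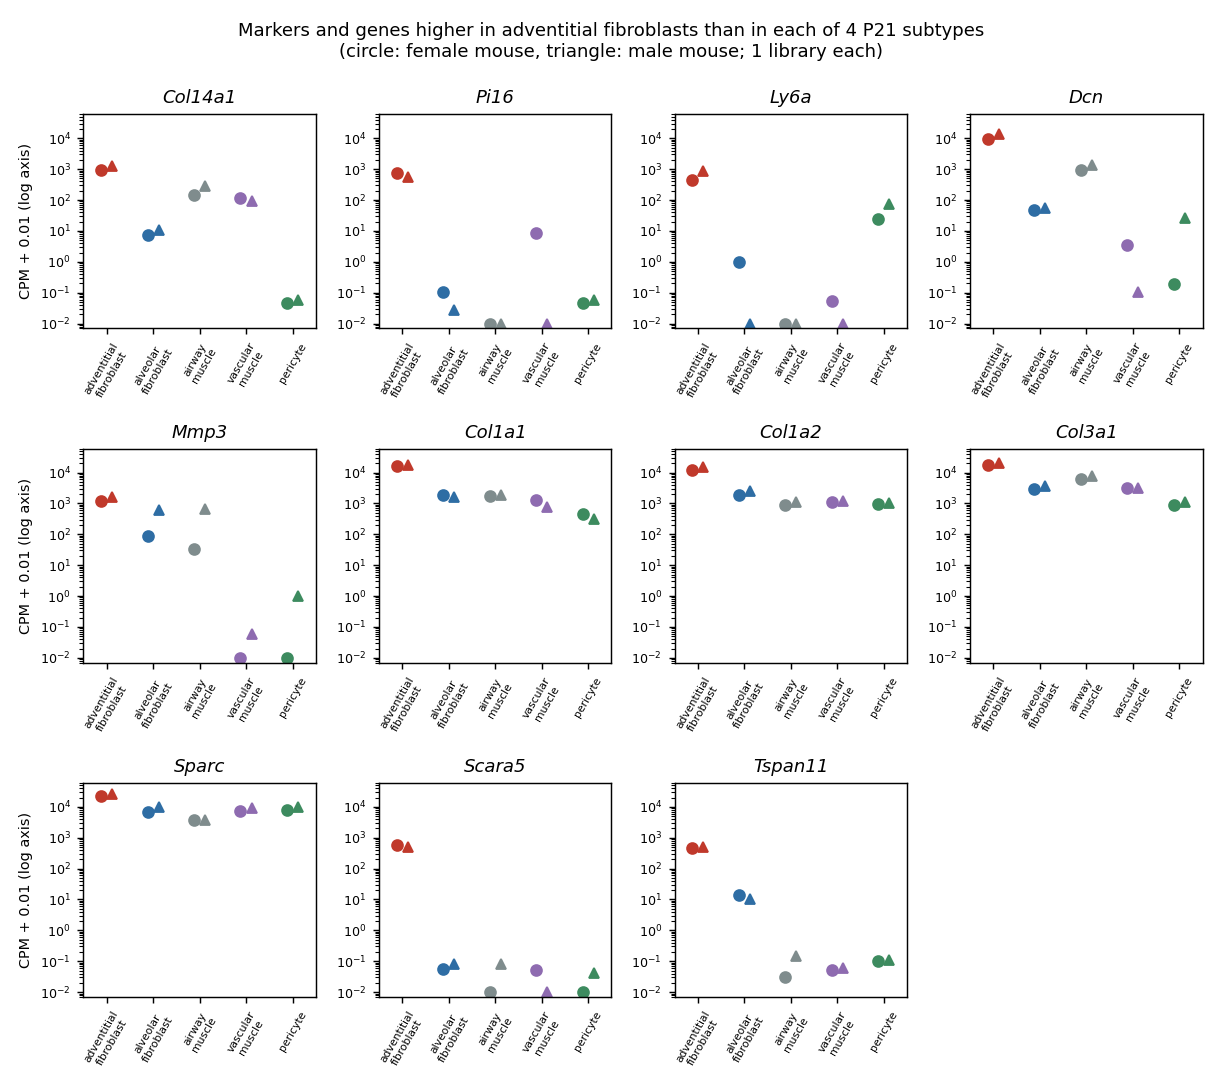
Levels of markers and other genes high in adventitial fibroblasts in the 10 P21 libraries, in CPM on a log scale; each point is 1 mouse and subtype. Both adventitial points of Col14a1 (952 and 1271 CPM) and of Scara5 (562 and 502 CPM) lie above all other libraries.

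Against the mean of the 4 other subtypes on the log scale, all 5 markers were called higher; they are the genes by which the label was checked, so these calls describe the label. In that comparison 285 genes were called higher (1.97%) and 61 lower (0.423%). The log2 difference was 6.83 ± 0.30 for Col14a1 (edgeR, adjusted p = 2.91e-05) and 8.39 ± 1.19 for Dcn (0.00853). Here and below the value after ± is an approximate SE, the log2 difference divided by the square root of the test's F. Mmp3, Ly6a and Pi16 also passed, with adjusted p = 0.00123, 0.00347 and 0.00214 (edgeR), but a subtype at or near 0 reads makes the size of their fitted difference arbitrary. The size for Col14a1 leans on the same kind of value, since its 2 pericyte libraries held 5 reads in all. The call on Pi16 and Ly6a was lost without either adventitial library, and that on Dcn without either adventitial or either airway muscle library. Against alveolar fibroblasts alone only Col14a1 was called (6.92 ± 0.54, adjusted p = 0.0035); the adjusted p was 0.0707 for Pi16, 0.153 for Ly6a, 0.338 for Dcn and 0.564 for Mmp3.

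Single cells carried the markers unevenly. To compare cells of unlike depth, each was thinned to 100000 reads, which left 151 adventitial cells in the female and 84 in the male and dropped 3 shallower ones. Col14a1 reads were found in 96.0% (Wilson 91.6 to 98.2) and 89.3% (80.9 to 94.3) of them, and Dcn reads in 94.0% and 95.2%. Before thinning the shares for Col14a1 were 96.7% and 90.6%, and for Dcn 94.8% and 96.5%. Pi16 was found in 68.2% (60.4 to 75.1) and 51.2% (40.7 to 61.6), and Ly6a in 62.3% and 51.2%. Mmp3 was found in only 41.1% and 38.1% of cells, although its summed level was 1163 CPM or more in both mice. These intervals cover counting error alone, and reads without molecular identifiers are not independent molecules.

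Pericytes gave a low reference for such shares at the same depth. Ly6a is an exception, since its summed level in pericytes was the highest outside adventitial fibroblasts. Whether the pericyte reads are background was not tested. No pericyte had a Col14a1 read (0 of 69 and 0 of 72, which allow shares of up to 4.35% and 4.17%), while Pi16 was found in 1.45% and 1.39% and Ly6a in 2.90% and 1.39%. The median depth before thinning was 723633 and 695933 reads per pericyte. In alveolar fibroblasts Col14a1 was found in 6.25% and 4.48% of cells, and Mmp3 in 11.4% and 14.9%. Airway muscle cells had Col14a1 in 51.7% and 51.9% and Dcn in 51.7% and 46.3%, shares that far exceed those of pericytes.

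At least 3 of the 5 markers were found together in 83.4% of adventitial cells of the female and 73.8% of the male. The share was 1.14% and 1.49% in alveolar fibroblasts and 6.90% and 1.85% in airway muscle, and no vascular muscle cell or pericyte reached 3; 0 of 32 and 0 of 19 vascular muscle cells allow up to 9.38% and 15.8%. All 5 were found in 23.2% and 11.9% of adventitial cells. Among Pi16-positive cells 70.9% and 58.1% had Ly6a, against 43.8% and 43.9% of Pi16-negative cells. Mmp3 was found in 39.8% and 30.2% of Pi16-positive cells and in 43.8% and 46.3% of Pi16-negative cells, a small gap in the female. With Ly6a it went the other way. Among Ly6a-positive cells 47.9% and 48.8% had Mmp3, against 29.8% and 26.8% of Ly6a-negative cells. No test was made of any of these pairings.

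**Figure D2:**
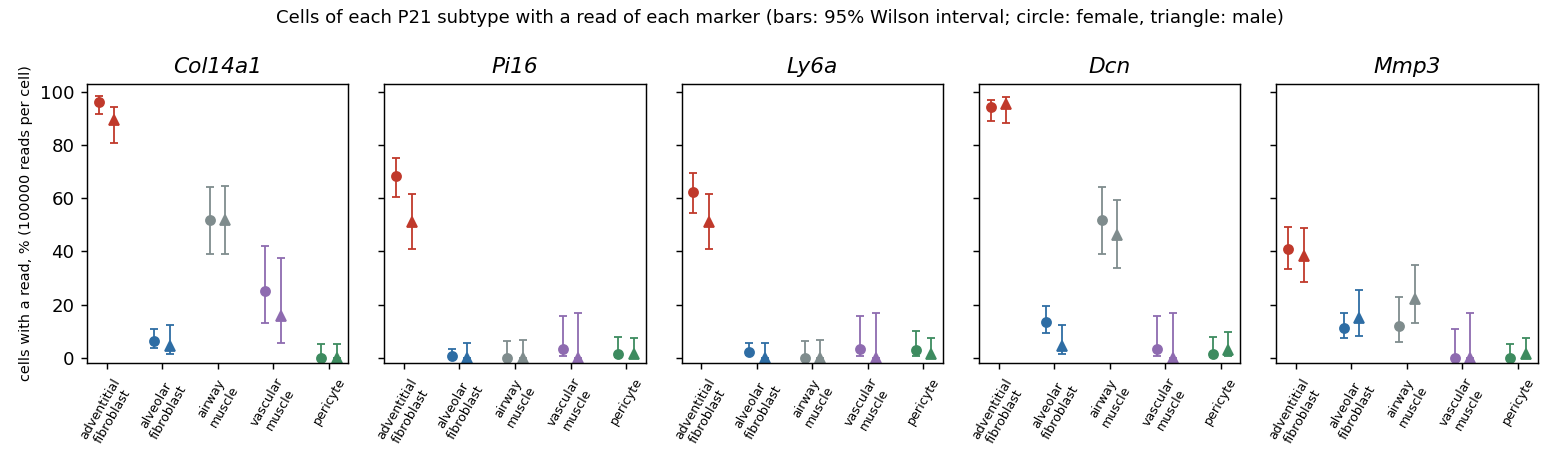
Percentage of P21 cells with at least 1 read of a gene after thinning to 100000 reads per cell, by subtype and mouse; bars are 95% Wilson intervals. Adventitial shares run from 96.0% (Col14a1, female) down to 38.1% (Mmp3, male).

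In all, 6 genes were called higher in adventitial fibroblasts than in each of the 4 other subtypes (0.0416% of genes tested), and 7 were called lower than each (0.0485%). The higher genes were Col1a1, Col1a2, Col3a1, Sparc, Scara5 and Tspan11. The first 4 are core products of collagen-making cells. The 13 calls in both directions came to 3 without either adventitial library, to 6 and 4 without the female's and the male's alveolar library, to 6 and 8 without those of airway muscle and to 8 without the male's pericyte library.

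Col1a1 and Col1a2 encode the chains of type I collagen, the main fibril of connective tissue. Col1a1 had 16761 and 17447 CPM in adventitial fibroblasts and 1938 and 1681 CPM in alveolar fibroblasts. It had 1751 and 1907 in airway muscle, 1268 and 751 in vascular muscle, and 450 and 317 in pericytes. Adventitial means were thus 9.45-fold, 9.35-fold, 16.9-fold and 44.6-fold those of the other subtypes in that order. The log2 difference from alveolar fibroblasts was 3.25 ± 0.29 (adjusted p = 0.00494, edgeR). Col1a2 had 12356 and 15659 CPM and its highest other library was alveolar, at 2540 CPM. Its means were 6.28-fold above alveolar fibroblasts and 12.0-fold to 13.8-fold above the rest.

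Col3a1, the chain of type III collagen that co-assembles with type I, had 17030 and 21188 CPM. Airway muscle came nearest, at 6341 and 7566 CPM, a 2.75-fold difference in means; alveolar fibroblasts had 2869 and 3618 CPM. Sparc, a calcium-binding protein that aids collagen assembly, was high in every subtype. Its adventitial levels were 22484 and 27018 CPM, and its highest other library had 9982 CPM, in the male's alveolar fibroblasts. The fold over each other subtype ranged from 2.77 for pericytes to 6.66 for airway muscle.

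Scara5, a scavenger receptor that takes up ferritin, came closest of these 6 to being found in adventitial cells alone. It had 562 and 502 CPM there and at most 0.0731 CPM in any other library. After thinning its reads were in 71.5% (63.9 to 78.1) and 58.3% (47.7 to 68.3) of adventitial cells, in no alveolar fibroblast (0 of 176 and 0 of 67, which allow up to 1.70% and 4.48%), and in 1 of 32 vascular muscle cells of the female. Tspan11, a tetraspanin of the cell membrane, had 467 and 500 CPM, with 14.2 and 10.6 CPM in alveolar fibroblasts and at most 0.139 CPM elsewhere. It was found in 84.8% and 70.2% of adventitial cells.

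The stretch of 250 bases before the transcription start is shown for 4 genes, a pair of markers and a pair of the genes higher than in each subtype. Of the 11 genes of both kinds 6 had a window, and these 4 are the ones whose window held a motif searched for. Sequences are from RefSeq on GRCm38.p6, written 5′ to 3′ along the gene's strand. The motifs searched on both strands were TGANTCA, bound by AP-1 factors, TATAAA, the TATA box, and CCAAT, bound by NF-Y. They do not overlap one another in these windows, and capitals mark the matches. The windows are Mmp3 at chr9:7445572-7445821, Pi16 at chr17:29318632-29318881, Col1a2 at chr6:4505368-4505617 and Col3a1 at chr1:45311288-45311537, all on the plus strand.
Mmp3: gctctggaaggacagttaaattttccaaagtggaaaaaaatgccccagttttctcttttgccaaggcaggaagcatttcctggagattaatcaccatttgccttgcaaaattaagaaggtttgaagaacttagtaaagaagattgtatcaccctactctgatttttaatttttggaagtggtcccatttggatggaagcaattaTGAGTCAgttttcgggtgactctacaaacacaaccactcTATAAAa
Pi16: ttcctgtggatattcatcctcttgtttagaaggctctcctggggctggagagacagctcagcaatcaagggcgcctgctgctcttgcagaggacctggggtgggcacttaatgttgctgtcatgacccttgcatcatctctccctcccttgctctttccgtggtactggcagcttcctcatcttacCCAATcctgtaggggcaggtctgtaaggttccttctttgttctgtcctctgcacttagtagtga
Col1a2: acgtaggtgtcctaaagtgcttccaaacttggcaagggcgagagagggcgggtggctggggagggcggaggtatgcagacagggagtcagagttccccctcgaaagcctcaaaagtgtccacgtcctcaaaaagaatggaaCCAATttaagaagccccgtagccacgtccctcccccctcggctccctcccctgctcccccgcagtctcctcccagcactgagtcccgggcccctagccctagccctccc
Col3a1: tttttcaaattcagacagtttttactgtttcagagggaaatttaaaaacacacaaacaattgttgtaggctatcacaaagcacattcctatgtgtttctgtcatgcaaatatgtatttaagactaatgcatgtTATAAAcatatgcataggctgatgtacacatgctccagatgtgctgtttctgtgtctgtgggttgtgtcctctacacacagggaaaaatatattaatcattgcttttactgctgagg
Mmp3 held TGAGTCA 46 bases and TATAAA 7 bases before the start. Pi16 held CCAAT 64 bases before it, Col1a2 held CCAAT at 109 bases, and Col3a1 held TATAAA at 117 bases. Sparc and Tspan11 had no match to these letters in their windows. Of all 32851 windows, 6.75% held TGANTCA, 12.4% held TATAAA and 33.8% held CCAAT, so the matches are common and are given as a description of the sequence.

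Of the 7 genes lower than in each other subtype, Des and Tagln belong to the list of contractile genes and none to that of pericyte genes. The contractile list did not fall as a whole against alveolar fibroblasts. There edgeR called Tagln and Des lower and Actg2 and Lmod1 higher among 9 genes, with a median log2 difference of 0.34. Over all genes 0.222% were called lower and 0.242% higher. By limma-trend 1 of the 9 was lower and 0 higher. Des, the intermediate filament desmin of muscle, had 1.96 and 0.813 CPM in adventitial fibroblasts. It had 46.9 and 14.9 CPM in alveolar fibroblasts and from 154 to 518 CPM in muscle and pericytes; vascular muscle was 318-fold and pericytes 227-fold above the adventitial mean. Tagln, which encodes the actin-binding protein transgelin, had 3.30 and 2.93 CPM against 720 and 781 CPM in vascular muscle and 23.2 and 31.3 CPM in pericytes. Kcnk3, a potassium channel, had 2.37 and 1.64 CPM and reached 922 and 1069 CPM in pericytes. None of these ranges overlapped the adventitial levels.

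Adgrg6, an adhesion G protein-coupled receptor, had 1.97 and 3.15 CPM against 80.7 and 134 CPM in alveolar fibroblasts and 656 and 899 CPM in pericytes. Serpine2, an inhibitor of serine proteases, had 111 and 116 CPM. Its level was at least 1208 CPM in every alveolar and muscle library and 245 and 710 CPM in pericytes. Spint2, another protease inhibitor, was near the floor in adventitial fibroblasts at 0.0385 and 0.0104 CPM, with 44.9 and 114 CPM in alveolar fibroblasts. Pericytes had 2.65 and 4.40 CPM. Spint2 was also among the largest falls against alveolar fibroblasts (adjusted p = 0.0201, edgeR), where the reads near 0 leave the size of the fall arbitrary.

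Malat1, a nuclear long noncoding RNA found in most cells, was the least changed of the 7. It had 4996 and 7461 CPM in adventitial fibroblasts and 16767 and 37236 CPM in pericytes, with the other subtypes between. Each other subtype exceeded the adventitial mean by 2.57-fold to 4.34-fold. Within each subtype the male library was the higher one. Without the mouse as a replicate block Malat1 lost its call against the mean of the 4 (log2 -1.65, adjusted p = 0.105, edgeR).

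**Figure D3:**
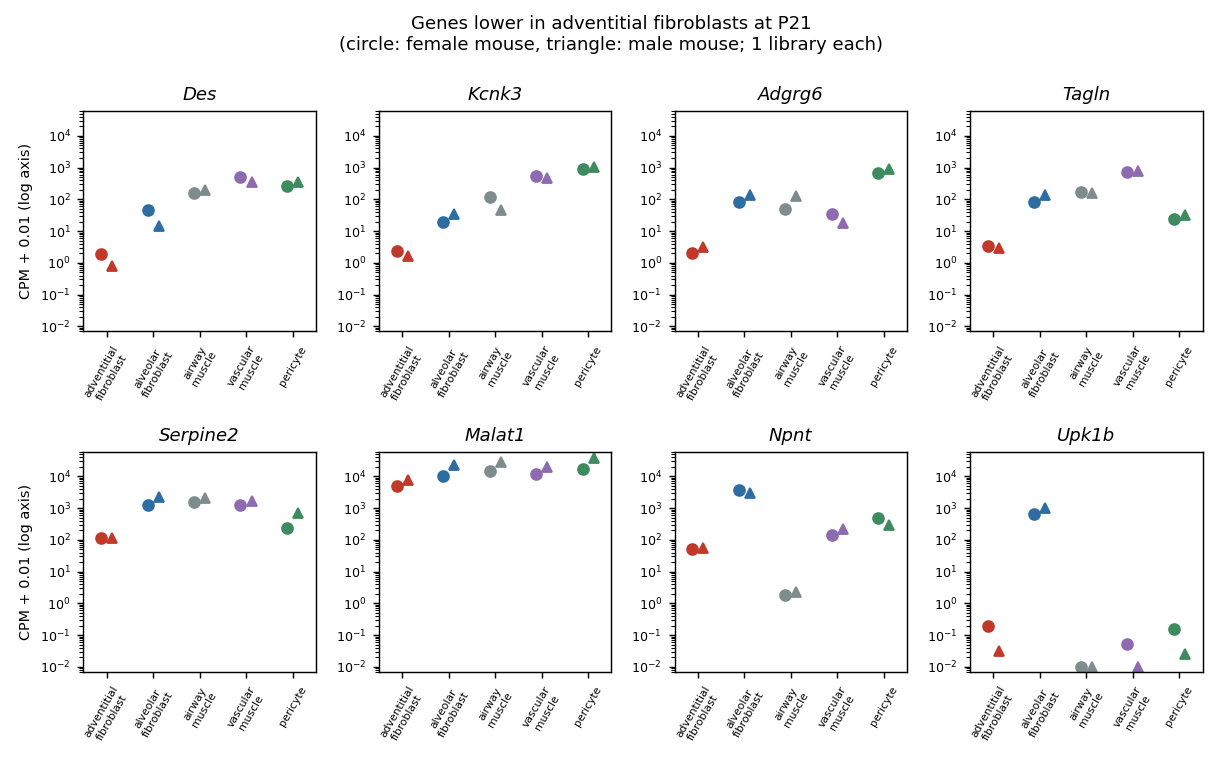
Levels of 6 of the 7 genes called lower in adventitial fibroblasts than in each other P21 subtype, and of Npnt and Upk1b, called lower than in alveolar fibroblasts; values are CPM on a log scale, and each point is 1 mouse and subtype. Des reaches 518 CPM in vascular muscle and stays under 2 CPM in both adventitial libraries.

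Alveolar fibroblasts are the other P21 fibroblast. Against them adventitial cells had 35 genes called higher (0.242%) and 32 lower (0.222%). Against airway muscle 48 were higher (0.332%) and 23 lower (0.159%), against vascular muscle 76 (0.526%) and 68 (0.471%), and against pericytes 296 (2.05%) and 139 (0.963%). These counts were not tested against each other, and the order of the alveolar and airway muscle sums, 67 and 71, turned with RLE scaling (67 and 64) and with the mesenchymal sort alone (72 and 71). Without 1 of their libraries the sums of both directions ranged from 191 to 267 for pericytes, from 34 (without the male adventitial library) to 372 (without the female vascular muscle library) for vascular muscle, and from 28 to 34 for airway muscle. An unadjusted p under 0.05 was found for 984 genes against alveolar fibroblasts. Leaving out 1 library cut the 67 calls to 11 without the female and 12 without the male adventitial library, to 34 without the female and to 13 without the male alveolar library.

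Several genes that were high in adventitial fibroblasts were at or near 0 in alveolar fibroblasts. Entpd1, the ectonucleotidase CD39 that degrades extracellular ATP, had 53.3 and 89.2 CPM in adventitial fibroblasts and no reads in either alveolar library. Against a floor of 3 reads over the group it was at least 4747-fold higher, and the call (adjusted p = 0.00916) was kept whichever of these 4 libraries was left out. It was not particular to adventitial cells, since airway and vascular muscle had from 111 to 224 CPM. Scara3, a scavenger receptor of the same family as Scara5, had 228 and 233 CPM against 0.00633 and 0 CPM. Cd200, a surface glycoprotein that restrains myeloid cells, had 72.3 and 77.9 CPM against under 0.02 CPM. Aldh3a1, an aldehyde dehydrogenase, differed between the mice at 55.3 and 238 CPM, against under 0.01 CPM in alveolar fibroblasts (adjusted p = 0.0468). Epha4, an ephrin receptor, had 35.2 and 21.2 CPM, while airway muscle had 120 and 36.5 CPM.

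Other genes called higher than in alveolar fibroblasts had their peak in another subtype. Postn, a matrix protein, had 200 and 137 CPM against under 0.3 CPM in alveolar fibroblasts, but 11786 and 10323 CPM in pericytes. Pdgfrb, the PDGF receptor of mural cells, had 177 and 102 CPM against 15.0 and 5.13 CPM, and 2809 and 1849 CPM in pericytes. Igfbp5, which binds insulin-like growth factors, had 248 and 316 CPM against 4.48 and 16.2 CPM, and 2049 and 2716 CPM in airway muscle. These levels were chosen for display after their values were seen.

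Npnt, a basement membrane ligand and an alveolar fibroblast marker, had the lowest adjusted p of the alveolar markers. It had 51.3 and 54.2 CPM in adventitial and 3627 and 2947 CPM in alveolar fibroblasts, a 62.3-fold lower mean (log2 -5.96 ± 0.46, adjusted p = 0.0035, edgeR). The call was kept without any 1 of the 4 libraries. Npnt reads were in 21.9% and 20.2% of adventitial cells after thinning and in 97.7% and 86.6% of alveolar cells. Upk1b, a tetraspanin of urothelium and mesothelium, had 0.179 and 0.0209 CPM against 671 and 987 CPM. It is 1 of 8 mesothelial genes, whose alveolar sum was 703 and 930 CPM before TMM scaling. Most of that sum was Upk1b itself, so the sum says little about the other mesothelial genes. The part of mesothelial RNA in this difference was not tested. Adap2, which binds phosphoinositides, had no reads in adventitial cells and 38.1 and 16.2 CPM in alveolar cells, at least 2723-fold lower against the 3-read floor.

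Car2, a carbonic anhydrase, had 9.60 and 8.20 CPM against 247 and 475 CPM. Fam210b, a mitochondrial protein, had 4.94 and 0.782 CPM against 195 and 221 CPM, and Inpp4b, an inositol phosphatase, had 0.0321 and 0.0209 CPM against 16.4 and 12.2 CPM. The adjusted p of Car2 (0.0496) and Fam210b (0.0495) lay just under the threshold; that of Fam210b rose to 0.0551 (edgeR) without the replicate block. Of the 14 genes that the naming rule took for this comparison, 12 lost their call without at least 1 of the 4 libraries, all but Entpd1 and Npnt.

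Of 12 tested alveolar fibroblast markers none had a positive log2 difference from alveolar fibroblasts and 3 were called lower, namely Npnt, G0s2 and Limch1. G0s2, an inhibitor of triglyceride breakdown, had 163 and 127 CPM against 1235 and 1609 CPM. Limch1, an activator of nonmuscle myosin, had 448 and 353 CPM against 5284 and 6359 CPM. A further pair of alveolar markers still stood above the mean of the 4 other subtypes: Inmt, a methyltransferase, had 2854 and 4668 CPM and Wnt2, a Wnt ligand, 15.6 and 6.34 CPM. Both were below alveolar levels (15440 and 23422 CPM for Inmt, 238 and 414 CPM for Wnt2) but above muscle and pericyte levels. The mean of the 4 includes 3 muscle or mural subtypes, so a call against it can mark what the fibroblast subtypes have in common.

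The next sections give counts for 18 lists of genes by function, against the mean of the 4 other subtypes unless stated. The background is 1.97% of genes called higher and a median log2 difference of 0.29 over all genes tested, or 0.17 with genes at 0 reads set to the 3-read floor; with another scaling (RLE) the median was 0.24. The lists were chosen with earlier results of these data known, and most were chosen as genes of fibroblasts. The 5 markers of the label are among their members and are counted in them. Pi16 and Ly6a are in the surface list, Col14a1 in the collagens, Dcn in the proteoglycans and Mmp3 in the proteases. Calls on these markers describe the label. Their calls rest on both adventitial libraries: the 346 calls in either direction fell to 54 without the female library and 43 without the male one. The count was 206 and 191 without either airway muscle library, 227 and 202 without either alveolar library, and rose to 489 without the female's vascular muscle library. Of the 51 genes that the naming rule took for this contrast, 16 kept their call in all 10 such fits and 35 lost it in at least 1.

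**Figure D4:**
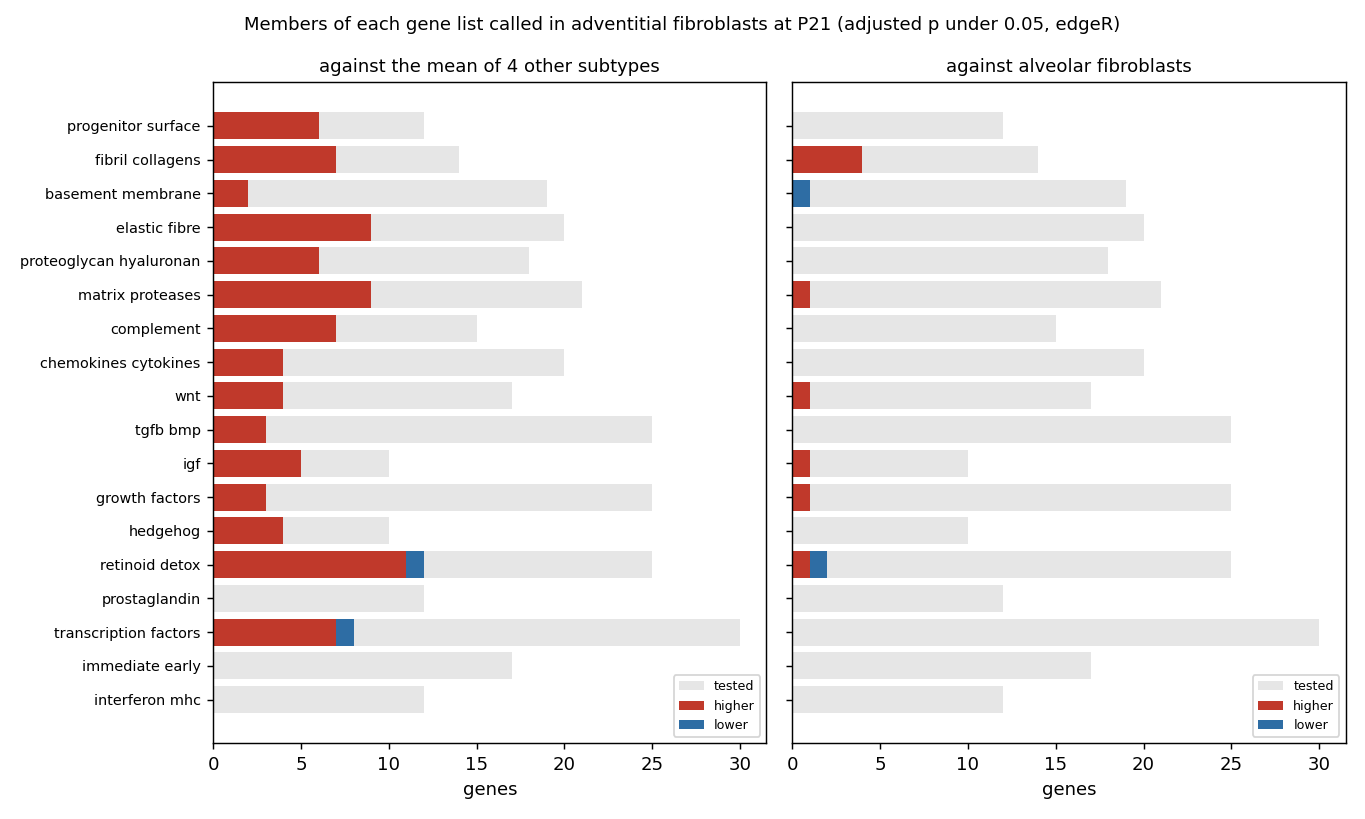
Number of genes of each of the 18 functional lists that were tested (grey bars) and called higher (red) or lower (blue) in adventitial fibroblasts at P21, against the mean of the 4 other subtypes (left) and against alveolar fibroblasts (right). On the left 7 of 14 fibril collagen genes and 2 of 19 basement membrane genes are called higher, and on the right 4 of the 14 collagen genes are. Col14a1, a marker of the label, is among the called collagen genes on both sides.

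Surface genes of progenitor-like fibroblasts were 12 in number, and 6 were called higher, namely Pi16, Ly6a, Ly6c1, Cd34, Cd55 and Entpd2. Their median log2 difference was 7.24 (6.09 with the floor), and 7 lay above all 8 other libraries. Cd34, a sialomucin shared by stem cells and vessels, had 1266 and 1187 CPM against 297 and 421 CPM in alveolar fibroblasts and at most 74.4 CPM elsewhere. Ly6c1, a relative of Ly6a, had 137 and 183 CPM and at most 1.18 CPM elsewhere. Reads of such closely related Ly6 genes may be split between copies. Dpp4, a peptidase that marks interstitial progenitors in other organs, had 7.76 and 28.5 CPM and was not called (adjusted p = 0.0735). Its reads were in only 2.65% and 3.57% of adventitial cells. Against alveolar fibroblasts edgeR called none of the 12, with 7 at an unadjusted p under 0.05; DESeq2 called 7 higher and limma-trend 5.

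Fibril collagens and their partners showed 7 of 14 called higher, namely Col1a1, Col1a2, Col3a1, Col5a1, Col6a1, Col14a1 and Col15a1, with a median of 2.24 (1.98 with the floor). The 14 genes together came to 53160 and 57090 CPM before TMM scaling, against 10740 and 11650 CPM in alveolar fibroblasts. Of these, 4 were also called higher than in alveolar fibroblasts: Col1a1, Col1a2, Col3a1 and Col14a1. Col15a1, a collagen of the zone near basement membranes, had 214 and 143 CPM against 0.728 and 7.75 CPM in alveolar fibroblasts (log2 7.00 ± 0.93 against the mean of the 4, adjusted p = 0.00644). Col12a1 did not follow, at 14.3 and 11.8 CPM against 75.0 and 81.9 CPM in airway muscle. Basement membrane genes stood nearer to the background, with 2 of 19 called higher (Col4a5 and Nid2) and a median of 1.04. Against alveolar fibroblasts the median was 0.05. Before TMM scaling the 19 genes came to 3486 and 3637 CPM. This was below alveolar fibroblasts (7525 and 6747 CPM) and pericytes (8167 and 6865 CPM), and above airway muscle (1613 and 1036 CPM). Vascular muscle had 3458 and 2712 CPM.

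Elastic fibre genes included 9 of 20 called higher, with a median of 2.41: Fbn1, Mfap5, Fbln1, Fbln2, Efemp1, Emilin2, Ltbp4, Lox and Loxl1. Mfap5, a microfibril protein, had 1979 and 5762 CPM, and within each mouse it exceeded alveolar fibroblasts (838 and 1954 CPM) and airway muscle (750 and 1718 CPM). Its log2 difference from the mean of the 4 was 5.40 ± 0.25 (adjusted p = 2.91e-05). Fbln2, a fibulin of vessel walls, had 263 and 224 CPM and at most 9.03 CPM in other libraries. Emilin2, an elastin-interface protein, had 49.2 and 29.2 CPM and was almost without reads elsewhere. The 20 genes together came to 15010 and 21250 CPM before TMM scaling. Alveolar fibroblasts had more, at 27230 and 34400 CPM, and the other subtypes at most 9328 CPM. Against alveolar fibroblasts edgeR called no gene of this list, with 7 at an unadjusted p under 0.05 and a median log2 difference of 0.32. DESeq2 and limma-trend each called 2 higher. Lox, which cross-links collagen and elastin, was level there, at 255 and 255 CPM against 289 and 251 CPM. Elastin itself (Eln) had 2059 and 2761 CPM, below the alveolar 4480 and 4116 CPM and the vascular muscle 4262 and 5343 CPM.

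Proteoglycan and hyaluronan genes had 6 of 18 called higher, namely Dcn, Lum, Ogn, Podn, Has2 and Tnfaip6, with a median of 3.11 (2.83 with the floor). By edgeR none of the 18 was called against alveolar fibroblasts. DESeq2 called 6 higher and 1 lower, and limma-trend 3 and 1. Lum, which encodes the collagen-binding lumican, had 1679 and 1595 CPM, against 14.6 and 0.0365 CPM in alveolar fibroblasts and 2055 and 3115 CPM in airway muscle. Lumican was thus high in a muscle subtype as well, as decorin was at a lower level. Has2, a hyaluronan synthase, had 8.85 and 44.3 CPM and at most 0.0198 CPM elsewhere. Ogn, another small proteoglycan, had 1250 and 1614 CPM but 2416 and 3363 CPM in alveolar fibroblasts.

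Matrix proteases and their inhibitors included 9 of 21 called higher, with a median of 2.42, and 10 lay above all 8 other libraries. Serpinf1, the secreted factor PEDF, had 3436 and 5312 CPM and at most 27.4 CPM in any other library. The log2 difference was 12.92 ± 0.90 (adjusted p = 0.000318), and its reads were in 95.4% and 96.4% of adventitial cells against 6.82% and 2.99% of alveolar cells. Against alveolar fibroblasts alone its adjusted p was 0.0707. Mmp2, a gelatinase, had 2918 and 3635 CPM, not far above the alveolar 2719 and 2461 CPM. Htra1, a serine protease, had 359 and 499 CPM against 10.0 and 33.7 CPM and was the list's 1 call against alveolar fibroblasts.

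Complement genes had 7 of 15 tested called higher, namely C1ra, C1s1, C3, C7, Cfb, Serping1 and Cd55, with a median of 2.53. Of the 18 listed, 3 were not tested. None of the 15 was called against alveolar fibroblasts by edgeR. DESeq2 called 1 higher and 1 lower, and limma-trend 1 lower. C3, the central protein of the cascade, had 1353 and 1499 CPM. The alveolar libraries had 242 and 124 CPM and airway muscle 189 and 146 CPM, and vascular muscle had no reads. The mean was 7.79-fold that of alveolar fibroblasts and 8.51-fold that of airway muscle. The adjusted p was 5.33e-05 against the mean of the 4, a difference whose size is arbitrary with a subtype at 0 reads, and 0.0782 against alveolar fibroblasts (edgeR); C3 reads were in 77.5% and 64.3% of adventitial cells. Cfb, a factor of the alternative pathway, had 254 and 208 CPM against 23.9 and 154 CPM in alveolar fibroblasts. C7, of the terminal pathway, was higher in alveolar fibroblasts (440 and 695 CPM) than in adventitial ones (96.8 and 77.5 CPM).

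Chemokines and cytokines gave 4 of 20 called higher, namely Ccl11, Cxcl12, Il6 and Il33, with a median of 3.62 (2.91 with the floor). None of the 20 was called against alveolar fibroblasts by edgeR, while DESeq2 called 4 higher and limma-trend 3. Ccl11, which draws eosinophils, had 360 and 672 CPM and at most 27.0 CPM elsewhere. Its reads were in 47.0% and 48.8% of adventitial cells. Cxcl12, which retains leukocytes and blood progenitors, had 1244 and 1051 CPM against 92.9 and 96.4 CPM in alveolar fibroblasts. Il33, an alarmin that acts on innate lymphoid cells, had 107 and 297 CPM and at most 2.96 CPM elsewhere, with reads in 31.1% and 35.7% of cells. Il6 was about as high in airway muscle (326 and 573 CPM) as in adventitial fibroblasts (393 and 462 CPM).

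Wnt pathway genes had 4 of 17 tested called higher, namely Wnt2, Sfrp4, Wif1 and Lgr5, with a median of 4.15. Wif1 and Sfrp4 are secreted Wnt inhibitors. Wif1 had 28.9 and 168 CPM against under 0.03 CPM in alveolar fibroblasts, where it was also called higher, but airway muscle had 53.3 and 120 CPM. Sfrp4 had 89.2 and 152 CPM and at most 12.5 CPM elsewhere. Lgr5, an R-spondin receptor, was higher in airway muscle (129 and 61.0 CPM) than in adventitial fibroblasts (10.5 and 29.3 CPM).

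In the TGF-beta and BMP list 3 of 25 were called higher, namely Bmp7, Gdf10 and Chrdl1, with a median of 1.18 (0.81 with the floor). None of the 25 was called against alveolar fibroblasts by edgeR. DESeq2 called 6 higher and 2 lower, and limma-trend 2 higher. Gdf10, a ligand of that family, had 241 and 380 CPM against at most 53.9 CPM elsewhere and no reads in pericytes (adjusted p = 0.000594). Bmp7, a bone morphogenetic protein, had 29.5 and 76.7 CPM against 6.06 and 14.1 CPM in alveolar fibroblasts. Of 10 genes of the insulin-like growth factor system 5 were called higher, namely Igf1 and the binding proteins Igfbp4, Igfbp5, Igfbp6 and Igfbp7. Igfbp4 had 2519 and 2203 CPM and at most 444 CPM elsewhere, and Igfbp6 had 812 and 1171 CPM and at most 282 CPM. The ligand Igf1 had 283 and 733 CPM but 454 and 1130 CPM in airway muscle.

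Growth factors and receptors had 3 of 25 tested called higher, namely Pdgfra, Fgf10 and Fgfr1. Pdgfra, the PDGF receptor of fibroblasts, had 358 and 422 CPM against 973 and 1046 CPM in alveolar fibroblasts and at most 14.3 CPM in the rest. Fgf10, a ligand that guides airway branching, was likewise below its alveolar level, at 60.2 and 37.3 CPM against 156 and 167 CPM. Hedgehog genes had 4 of 10 called higher, among them the co-receptors Boc and Cdon and the antagonist Hhip. None of the 10 was called against alveolar fibroblasts by edgeR, while DESeq2 and limma-trend each called 1 higher. Cdon had 95.9 and 134 CPM and at most 4.23 CPM elsewhere. Hhip had 122 and 195 CPM, far below the 5094 and 5758 CPM of airway muscle, so its call comes from alveolar, vascular and pericyte levels of at most 92.4 CPM.

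Retinoid and detoxification enzymes had 11 of 25 called higher and 1 lower, with a median of 1.81 (1.76 with the floor). Aldh1a2 and Aldh1a3, which make retinoic acid, had 98.5 and 190 CPM and 32.3 and 10.8 CPM. The first had 60.9 and 49.3 CPM in vascular muscle and at most 0.00633 CPM in alveolar fibroblasts. Adh7, an alcohol dehydrogenase, had 142 and 590 CPM and at most 7.39 CPM elsewhere. Gpx3, a secreted glutathione peroxidase, was the gene called lower, at 918 and 1368 CPM against 6621 and 8596 CPM in alveolar fibroblasts. In that fibroblast comparison the list's median log2 difference was -0.24, and the floor version -0.12.

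Transcription factors had 7 of 30 tested called higher and 1 lower, with a median of 2.17: Twist2, Osr1, Osr2, Klf4, Ebf2, Sox9 and Nfib, with Tbx2 lower. Twist2, a helix-loop-helix factor of mesenchyme, had 61.2 and 68.4 CPM, no reads in alveolar fibroblasts or airway muscle, and 14.3 and 99.3 CPM in pericytes (adjusted p = 0.00868; 0.0502 against alveolar fibroblasts). Ebf2 had 49.0 and 109 CPM and at most 16.1 CPM elsewhere, with reads in 25.8% and 27.4% of adventitial cells. Klf4, a zinc finger factor, had 411 and 421 CPM against 41.8 and 13.8 CPM in alveolar fibroblasts. Tbx2, a T-box factor of lung mesenchyme, had 26.0 and 37.7 CPM, below every other library. Against alveolar fibroblasts edgeR called none, with 14 at an unadjusted p under 0.05; DESeq2 called 10 higher and 3 lower, and limma-trend 5 and 1.

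Prostaglandin, immediate early and interferon or MHC genes had no call in either direction against the mean of the 4 by edgeR (0 of 12, 0 of 17 and 0 of 12 tested). Their medians were 2.88, 0.73 and 0.77. At an unadjusted p under 0.05 there were 4, 8 and 3 genes, and DESeq2 called 5 higher, 1 lower and 1 higher. Fos, an immediate early factor that cell isolation can induce, had 7650 and 5472 CPM against 3865 and 807 CPM in alveolar fibroblasts and 13799 and 10438 CPM in airway muscle (adjusted p = 0.278). In the alveolar comparison 16 of the 17 immediate early genes had a positive difference, with a median of 1.13 against 0.07 over all genes. With the floor these medians were 0.64 and -0.01. In the airway muscle comparison 6 of the 17 were positive, with a median of -0.96. Against pericytes edgeR called 7 of the 17 higher and 1, Hspa1a, lower (2.05% and 0.963% over all genes). It also called Ptgis and Irf1 of the other lists higher there. The part of immediate early genes in the other results was not tested.

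Markers of other cell types were summed in the adventitial libraries, in CPM before TMM scaling. The sums were 8.52 and 40.7 CPM for 10 epithelial genes, 80.4 and 73.9 CPM for 10 endothelial genes and 24.7 and 26.5 CPM for 11 immune genes. They were 16.7 and 4.51 CPM for 8 mesothelial genes, 3 of them at 0 reads, 5.78 and 1.11 CPM for 6 Schwann cell genes, 1.36 and 5.33 CPM for 5 erythroid genes and 0.138 and 0.0581 CPM for 6 cartilage genes. The 7 striated muscle genes came to 9.63 and 2.75 CPM and 8 proliferation genes to 13.2 and 16.6 CPM. The proliferation sum was 0.885 and 0.89 CPM in alveolar fibroblasts and 2.64 and 17.0 CPM in airway muscle. It was 13.0 and 0.145 CPM in vascular muscle and 0.137 and 59.6 CPM in pericytes. For the endothelial genes the sums were 16.8 and 34.8, 6.25 and 0.601, 140 and 8.03, and 35.1 and 120 CPM in the same order. No gene of these 2 lists was called against the mean of the 4 by edgeR (0 of 5 proliferation and 0 of 6 endothelial genes tested). DESeq2 called 2 proliferation genes and 1 endothelial gene higher, and limma-trend 1 of each. Their median log2 differences were 6.72 and -0.07 (4.93 and -0.25 with the floor). Ccnb1 and Aurkb of the proliferation list and Tek of the endothelial list lay above all 8 other libraries. The part of cycling or endothelial cells in these levels was not tested. The 9 contractile genes came to 88.5 and 191 CPM against 19700 and 24540 CPM in vascular muscle, and 10 pericyte genes to 433 and 325 CPM against 26620 and 24780 CPM in pericytes.

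Adventitial cells also had more genes with a read than the other subtypes. At 100000 reads per cell the median was 3214 genes for the female mouse and 2128.5 for the male one. The other subtypes had from 1894 to 2584.5 in the female and from 1091 to 1728.5 in the male, so that adventitial cells led in each mouse while the mice differed. The median log2 difference over all genes was above 0 as well (0.29 against the mean of the 4), and the part of gene number in the lists was not tested. No doublet caller was run, so the share of wells with more than 1 cell was not tested.

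Earlier ages gave the same comparison in other mice. At P7 and P1 the classes carry the names early adventitial and early alveolar fibroblast, again in 1 female and 1 male mouse per age in normal air. At P7 there were 49 and 55 early adventitial cells and 218 and 147 early alveolar cells; at P1 there were 138 and 67, and 362 and 393. Since the early names are the authors' and may rest on the same genes, agreement in the markers describes the naming. Values in the next paragraphs are CPM scaled over 12 libraries of the 3 ages, so the P21 values differ slightly from those above.

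At P7, 246 genes were called higher in the adventitial class (1.56%) and 144 lower (0.911%), and at P1 95 were higher (0.601%) and 72 lower (0.455%). Of the 35 genes higher at P21, 34 had the same sign at P7 and 23 were called there, which is 65.7% of the P21 list and 9.35% of the P7 list. Of the same 35, 31 had the same sign at P1 and 15 were called (42.9% and 15.8%). Of the 32 lower genes, 29 had the same sign at P7 and 15 were called (46.9% and 10.4%), while all 32 had the same sign at P1 and 13 were called (40.6% and 18.1%). Without 1 library the counts of calls, 390 at P7 and 167 at P1, fell to between 61 and 111 and to between 30 and 39; every library of the age concerned had this effect.

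The collagen difference was called at each age, and its change between P1 and P7 was not tested. Col1a1 had 9575 and 8453 CPM in early adventitial cells at P1, 17869 and 16679 at P7 and 18824 and 19485 CPM at P21, against alveolar levels of 2684 and 2737, 2678 and 1743, and 2081 and 1886 CPM. The log2 difference was 1.73 ± 0.16 at P1 and 3.0 ± 0.16 at P7. The difference did not pass the test of a change between P7 and P21 (adjusted p = 0.789). Col14a1 went from 735 and 581 CPM at P1 to 1369 and 1404 at P7 and 1069 and 1419 at P21. Npnt was lower in the adventitial class at every age, with log2 differences of -4.35 ± 0.32 at P1 and -4.29 ± 0.32 at P7.

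Other markers had much lower levels in the younger mice. Mmp3 had 2.10 and 8.27 CPM at P1, 9.34 and 30.3 CPM at P7 and 1306 and 1840 CPM at P21, with no overlap of ages. Its alveolar levels also differed by age, at under 0.07 CPM at P1 and P7 and 95.05 and 680 CPM at P21. Pi16 had 89.1 and 38.3 CPM at P1, 50.1 and 90.9 at P7 and 878 and 620 at P21, and Scara5 45.5 and 10.6, then 36.9 and 57.8, then 631 and 560 CPM. Ly6a had 171 and 43.8 CPM, then 49.5 and 181, then 519 and 965 CPM. Dcn had 3724 and 840 CPM, then 3042 and 3341, then 10919 and 14920 CPM. Changes of a level with age were not tested, because each age is another pair of mice. The mesenchymal plates of the 3 female mice came from different sequencing runs, so that age and run cannot be told apart in them. Those of the 3 male mice shared 1 run, and within it Mmp3 had 8.27, 30.3 and 1840 CPM at P1, P7 and P21 and Pi16 38.3, 90.9 and 620 CPM.

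**Figure D5:**
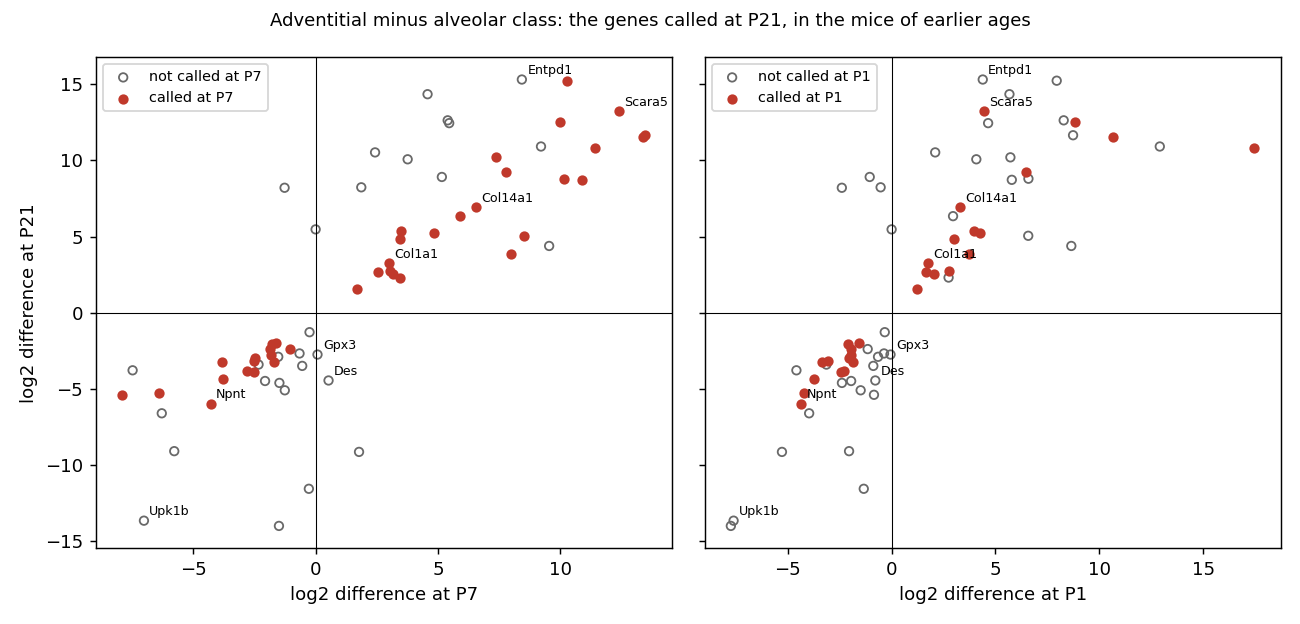
Log2 difference between the adventitial and the alveolar class for the 67 genes called at P21, with the P21 value on the vertical axis and the P7 (left) or P1 (right) value on the horizontal axis; each point is 1 gene, filled where it was also called at the earlier age. Of the 35 genes higher at P21, 34 have the same sign at P7, and all 32 lower genes have the same sign at P1.

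The class difference, taken within each mouse, was tested for a change between P7 and P21. Each age has its own mice, so age and mouse cannot be told apart in this test. Of 15815 genes tested 11 passed, 2 with a larger adventitial excess at P21 (0.0126%) and 9 with a smaller one or a reversal (0.0569%). Gpx3 was level at P7, with 738 and 552 CPM in the adventitial and 660 and 555 CPM in the alveolar class; at P21 it had 1031 and 1527 against 7110 and 9646 CPM. Eln went from an adventitial excess at P7 (4569 and 3074 against 604 and 422 CPM) to an alveolar one at P21 (2312 and 3084 against 4811 and 4619 CPM). Pdgfra did the same, from 126 and 158 against 21.5 and 29.1 CPM to 402 and 471 against 1045 and 1174 CPM. Igfbp4 went the other way, as the alveolar level was 902 and 738 CPM at P7 and 232 and 148 CPM at P21 while the adventitial level was 2030 and 1499 and then 2829 and 2460 CPM. Without 1 of the 8 libraries at these ages there were between 0 and 11 calls, and without the replicate block 34 (10 larger, 24 smaller). The split turned to 7 larger and 4 smaller without the female's adventitial library of P21 and to 7 and 1 without that mouse's alveolar library, and DESeq2 had 447 and 395.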

How the data were processed

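Single cells of distal mouse lung, sorted by flow cytometry into plates, were sequenced as full-length cDNA cut by Tn5 transposase, per the labels' protocols. The authors deposited whole-number read counts per gene and cell, without molecular identifiers. Per the submitters' processing notes STAR 2.5.2b and HTSeq 0.10 were used; those notes name the human build GRCh38 for mouse samples, so no coordinate of the files was used. The annotation, the counting mode and the filters are not given in the sources used here. The table held 18072 genes, none with a mitochondrial prefix, and 5480 cells, with a median of 91.5% of the labelled coverage. P21 cells had 40859 to 5177020 reads.

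Subtypes are those of the authors' deposited cell annotation. Reads were summed by mouse and subtype, and libraries of at least 10 cells were kept; the 3 early-named subtypes and the striated muscle cells at P21 did not reach that in both mice and were left out. edgeR 4.0.16 in R 4.3.3 fitted the quasi-likelihood model (TMM, filterByExpr) with the mouse as a replicate block, since libraries of 1 mouse come from the same animal; the P21 fit had 10 libraries and 4 residual degrees of freedom and the fit over ages 12 and 3. P-values were adjusted over all genes tested. The script was tested on simulated data with 200 changed genes. limma 3.58.1 and DESeq2 1.42.0 served as alternatives, next to RLE scaling, no filter on low counts, no block, the mesenchymal sort alone, and leaving out each library. Cells were thinned to 100000 reads, with 50000 as the alternative.

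The members and lists were chosen with earlier results of these data known. The genes given with statistics are the 5 markers, those called against each of the 4 subtypes, up to 6 rises and 8 falls against alveolar fibroblasts and up to 4 changes of the class difference, each at a mean of 10 CPM or more, and up to 4 genes per list with the largest difference or needed to tell what a list did. Other genes are given mainly by levels and were chosen after their values were seen. Genes with near-identical copies (Ly6a and Ly6c1, Mt1, actins) are uncertain. Not every called gene of the lists is reported here by name.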

Additional observations from a re-analysis of the deposited data

Results flagged for a closer look

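The difference between the adventitial and the alveolar class changed between P7 and P21 for 11 genes by the test of that change in edgeR, with adjusted p between 0.0224 and 0.0449. Values below are log2, adventitial minus alveolar at P21 less the same at P7, with levels in CPM in the female and the male. The largest falls were those of Ms4a4d (-13.92) and Mrgprf (-11.41), which had under 0.01 CPM in the alveolar class at P7, so that the size of these values is arbitrary. At P21 Ms4a4d had 184 and 244 CPM in adventitial against 170 and 571 CPM in alveolar fibroblasts, and Mrgprf 78.4 and 90.0 against 22.7 and 27.7 CPM.

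Cxcl14, a chemokine, changed by -6.89; its alveolar level was 3.65 and 6.29 CPM at P7 and 505 and 499 CPM at P21, and its adventitial level 60.8 and 35.8 and then 28.2 and 60.4 CPM. Prelp, a small proteoglycan, changed by -3.99, with alveolar levels of 34.4 and 32.1 CPM at P7 and 1926 and 1564 CPM at P21. Pdgfra changed by -3.84, Angptl2 by -3.75, Eln by -3.71 and Gpx3 by -2.80. Hspa1a, a heat shock protein that cell isolation can induce, changed by -3.26. Its levels were 48.1 and 63.5 against 8.35 and 9.42 CPM at P7, and 428 and 376 against 759 and 503 CPM at P21.

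In the other direction Igfbp4 changed by 2.74 and Mest, an imprinted gene, by 6.35. Mest was level at P7 (133 and 180 against 132 and 122 CPM) and had 28.5 and 27.0 against 0.476 and 0.123 CPM at P21. At most 4 of the 11 calls were shared with any fit that left out 1 library, and none with 6 of the 8 such fits. Each class difference lies within a mouse, but its change compares different mice. For the change as for the levels, age and mouse cannot be told apart. In the females the same holds for age and sequencing run, while the mesenchymal plates of the males shared 1 run.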

How the results depend on the processing

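RLE scaling and the cells of the mesenchymal sort alone kept every count of calls within 1.5 times its value. Of the called genes that the naming rule took, none changed sign under any setting. Other genes given in the text were not followed through the settings. DESeq2 called 661 genes against alveolar fibroblasts (edgeR 67), 1022 against airway muscle, 1884 against vascular muscle, 2120 against pericytes, 1207 against the mean of the 4, 98 against each of the 4, 1152 at P1, 2275 at P7 and 842 for the change between P7 and P21. Giving each cell equal weight, with limma-trend, gave 268, 382, 622, 1218, 545, 91, 352, 756 and 8 in the same order. Without the filter on low counts the change between P7 and P21 had 27 calls, and without the replicate block 34; the block moved no other count by over 1.5 times (73 against alveolar fibroblasts and 514 against the mean of the 4 without it). In an alternative chosen after seeing the data, the P21 contrast from the fit over 3 ages had 320 calls, 50 of them among the 67. The cause of these shifts was not tested.

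Leaving out 1 library gave 11 to 34 calls against alveolar fibroblasts, 28 to 34 against airway muscle, 34 to 372 against vascular muscle, 191 to 267 against pericytes, 43 to 489 against the mean of the 4, 3 to 19 against each of the 4, 30 to 39 at P1, 61 to 111 at P7 and 0 to 11 for the change; the lone remaining library was assumed to vary like the others. The larger direction of calls turned for the change (2 higher and 9 lower; 7 and 4 or 7 and 1 without the P21 female's adventitial or alveolar library; 447 and 395 by DESeq2), for vascular muscle without the female adventitial library (76 and 68; 18 and 22), at P1 without the male alveolar library (95 and 72; 14 and 16), for the P21 contrast from the fit over 3 ages (35 and 32; 159 and 161), and for the 6 higher and 7 lower genes called against each of the 4 by DESeq2 (67 and 31), by limma-trend (83 and 8) and without 1 library in 8 of 10 such fits. Of the called genes that the naming rule took, none lost its call under RLE scaling, DESeq2, no filter or the mesenchymal sort. Equal cell weight ended the calls of Nid2, Wnt2, Twist2, Epha4, Inpp4b, Ms4a4d, Mrgprf and Mest. With 19 and 33 cells the vascular muscle libraries are the smallest, and 2 mice limit every comparison.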

Other observations

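Genes outside every list were searched after the values were seen: 69 were called higher against the mean of the 4 other subtypes, had a mean of at least 50 CPM and lay above all 8 other libraries in both mice. None of the 8 named here was called against alveolar fibroblasts alone (edgeR, adjusted p between 0.0736 for Cpz and 0.536 for Lsamp). Angpt4, an angiopoietin ligand of the endothelial receptor Tie2, had 122 and 76.9 CPM and at most 0.354 CPM elsewhere. Ntrk2, the receptor for the neurotrophin BDNF, had 229 and 165 CPM, with 2.47 and 0.0731 CPM in alveolar fibroblasts. Dner, a transmembrane ligand with EGF repeats, had 54.3 and 120 CPM, and Lsamp, a cell adhesion protein of neurons, 119 and 154 CPM. Cpz, a carboxypeptidase that binds Wnt proteins, had 507 and 509 CPM against 14.3 and 12.4 CPM in alveolar fibroblasts and at most 38.2 CPM elsewhere, in the male's vascular muscle. Smoc2, a matricellular protein, had 552 and 531 CPM against 47.7 and 53.5 CPM in alveolar fibroblasts and at most 89.4 CPM elsewhere, in the male's airway muscle. Apod, a lipid carrier, had 169 and 495 CPM and at most 10.8 CPM elsewhere. Aqp1, a water channel also found in endothelium, had 113 and 220 CPM, at most 2.87 CPM in alveolar and muscle libraries, and 13.4 and 1.21 CPM in pericytes.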
